A study of Mus musculus with 6 samples.

Results

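The 42 genes described here encode the enzymes of glycolysis, pyruvate oxidation, the tricarboxylic acid (TCA) cycle and the pentose phosphate pathway, with the transcription factor HIF-1α. They were taken as a fixed list by gene symbol, and all 42 were present among the 24421 genes of the table. Their RNA was measured in wild-type (WT) Treg, or regulatory T cells, of mouse spleen and lymph nodes; Treg are CD4 lymphocytes that depend on Foxp3 and hold immune responses in check. Polyadenylated RNA was profiled by SMART-seq, in which cDNA is amplified by PCR before sequencing, and expression was deposited as FPKM (sequenced fragments corrected for transcript length and library size). There were 3 groups of 2 libraries: WT Treg stimulated with iBP, WT Treg stimulated without it, and WT Treg without stimulation. The study's design text names iBP as an inhibitor of H2AK119ub1, the ubiquitin mark that Polycomb repressive complex 1 places on histone H2A, and gives the activation as in vitro. The stimulus, its duration, the dose of iBP, and the strain, age and number of mice are not given in the labels. Kdm2b knockout Treg, which the design text also names, were not analysed here.

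Glycolysis splits glucose into pyruvate, which is either reduced to lactate in the cytosol or carried into mitochondria and oxidised through pyruvate dehydrogenase and the TCA cycle. The pentose phosphate pathway branches off at glucose phosphate and yields NADPH and ribose for nucleotides. Activated T cells characteristically raise glucose uptake and lactate output, a switch driven by mTOR, MYC and HIF-1α, while Treg are known for relying more on mitochondrial oxidation. HIF-1α binds DNA at a short core sequence, and genes of glucose uptake, glycolysis and lactate formation are among its best-known targets.

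The HIF core was searched as the letters ACGTG on both strands, in RefSeq windows of 300 bases. Each window held 250 bases before and 50 after the gene's start (build GRCm38.p6). No other form of the core was searched, so a window without a match may still hold one. The first listed window was used for each gene, and 41 of the 42 genes matched by symbol. A match was present in 16 of those 41 windows (39.0%). The share was 27.0% for the 7886 genes tested here that had a window, and 19.7% for all 27025. A match on both strands at once makes CACGTG, the E-box that MYC also binds, so that some matches overlap another motif. At least 2 separate places before the start were found in 4 of the 41 genes, which are shown because they include Hif1a itself and enzymes at the entry, the middle and the end of glycolysis. The 250 bases before the start of each are given 5′ to 3′ on the gene's strand, with the core in capitals.
Hif1a: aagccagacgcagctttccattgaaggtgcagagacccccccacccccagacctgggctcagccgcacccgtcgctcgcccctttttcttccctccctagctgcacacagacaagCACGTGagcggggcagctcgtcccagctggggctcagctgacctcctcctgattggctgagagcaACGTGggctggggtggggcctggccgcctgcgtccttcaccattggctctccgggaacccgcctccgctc
Hk2: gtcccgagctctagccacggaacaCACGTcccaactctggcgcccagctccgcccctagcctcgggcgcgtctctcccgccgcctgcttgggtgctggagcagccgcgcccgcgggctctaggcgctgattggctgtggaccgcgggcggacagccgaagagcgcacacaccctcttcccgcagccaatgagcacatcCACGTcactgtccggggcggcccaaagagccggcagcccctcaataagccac
Pgk1: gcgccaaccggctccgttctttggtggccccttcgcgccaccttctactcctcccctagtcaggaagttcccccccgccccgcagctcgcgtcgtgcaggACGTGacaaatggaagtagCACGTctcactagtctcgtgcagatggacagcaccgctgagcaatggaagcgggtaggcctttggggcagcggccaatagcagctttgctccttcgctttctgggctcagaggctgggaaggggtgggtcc
Ldha: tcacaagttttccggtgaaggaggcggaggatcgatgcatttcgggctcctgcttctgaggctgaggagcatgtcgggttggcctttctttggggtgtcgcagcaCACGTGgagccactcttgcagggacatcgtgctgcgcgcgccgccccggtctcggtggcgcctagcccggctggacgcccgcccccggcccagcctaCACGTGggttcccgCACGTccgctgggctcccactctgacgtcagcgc
These stretches are chr12:73907617-73907866 (plus strand, Hif1a), chr6:82774455-82774704 (minus strand, Hk2), chrX:106186850-106187099 (plus strand, Pgk1) and chr7:46845554-46845803 (plus strand, Ldha). In GENCODE M21, which has the same build, Hif1a spans chr12:73901375-73947530 and Ldha chr7:46841475-46855627, so that the printed stretches of these genes lie inside the annotated span, after the start of a longer transcript. CACGTG occurred 2 times before Ldha and 1 time before Hif1a, and not in the other two stretches. A match is a description of letters, since binding was not measured.

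The genes covered a wide range of levels. Means over the 6 libraries were above 100 FPKM for 11 genes, between 10 and 100 for 21, between 1 and 10 for 7 and below 1 for 3. Gapdh, which oxidises glyceraldehyde phosphate, was the most abundant at 633 to 872 FPKM, followed by Pkm (pyruvate kinase) at 388 to 435 and Ldha (the muscle-type subunit of lactate dehydrogenase) at 355 to 432. The ranges of Pkm and Ldha overlapped, while that of Gapdh lay above both. In 26 of 42 genes the highest library was less than 1.5 times the lowest, and in 9 it was more than 2 times the lowest. The steadiest was G6pdx, the entry enzyme of the pentose phosphate pathway, at 15.0 to 16.7 FPKM in all 6 libraries. A gene was tested where it reached at least 1 FPKM in at least 2 libraries, which 39 of the 42 did. The genes not tested were Pfkm, Aldoc and Pdk2. The genes together took 1.06% and 1.18% of summed FPKM in the stimulated libraries with iBP, 1.13% and 1.11% in the stimulated ones and 1.06% and 1.08% in the unstimulated ones.

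**Figure D1:**
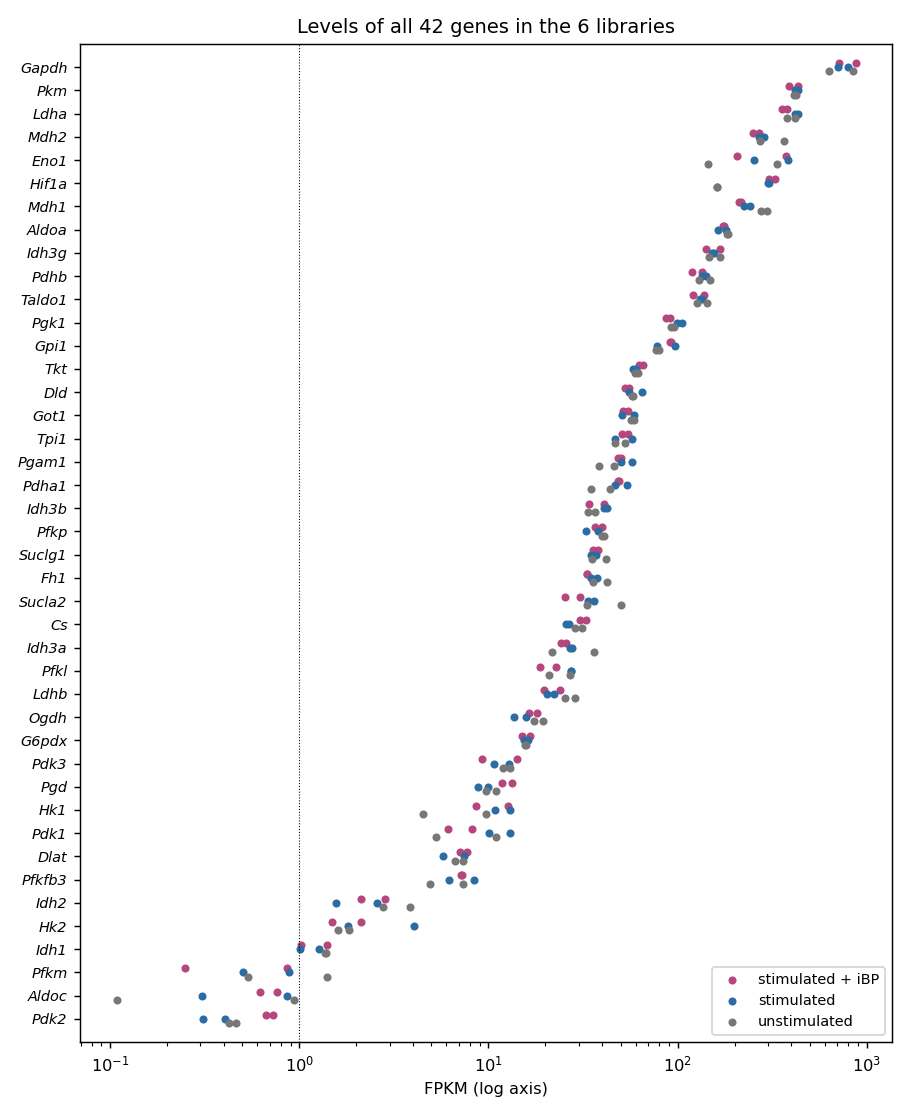
FPKM (horizontal log axis) of each of the 42 genes (rows, ordered by mean) in the 6 libraries, coloured by group; the dotted line marks 1 FPKM. Most genes form a tight cluster of 6 points, Hif1a has its 2 unstimulated points near 162 FPKM and the other 4 above 300, and Eno1 is widely scattered within every group.

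FPKM do not show sequencing depth. Summed FPKM was 366044 to 381302 and 12596 to 13592 genes were above 0. Unstimulated replicate 1 had the fewest genes above 0 and stood apart on the first principal component at −37.9, while unstimulated replicate 2 was at −9.32 and the stimulated libraries, with or without iBP, lay at 10.4 to 13.3. Some of the differences below are also given without it. Foxp3, Il2ra and the other 5 markers of Treg and T cells were present in all libraries. Their summed level was 1575 and 1590 FPKM with iBP, 1591 and 1718 in stimulated and 1125 and 1140 in unstimulated libraries. Tnfrsf18 was the largest part, at 770 and 793, 847 and 931, and 599 and 565 FPKM. The markers did not move together. Foxp3, Il2ra, Ctla4, Tnfrsf18 and Cd3e were higher in both stimulated than in both unstimulated libraries. Cd4 was lower (84.3 and 83.1 against 87.4 and 104 FPKM) and Ikzf2 overlapped. All 6 B-cell markers were present too, at 869 and 879, 1001 and 963, and 962 and 973 FPKM in the same order of groups. Of 8 myeloid markers Lyz2 made up most of a sum of 69.3 and 104, 89.4 and 89.5, and 68.5 and 87.1 FPKM, and Itgam, S100a8 and S100a9 were each at 0 in 4 of the 6 libraries. The 8 erythroid and platelet markers summed to 646 and 308, 770 and 767, and 755 and 649 FPKM, and Cd8a and Cd8b1 to 8.65 and 14.0, 10.4 and 8.48, and 9.15 and 8.99. The part of these other cells in the differences below was not tested, and in such bulk samples fewer cells of a type and less RNA per cell cannot be told apart.

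Stimulated against unstimulated libraries ask which of these genes differ once Treg are activated. Hif1a, the oxygen-regulated subunit of HIF-1, was the only one of the 39 tested genes that passed the test. It was listed at 301 and 303 FPKM in stimulated libraries, against 161 and 162 FPKM in unstimulated libraries. The libraries of a group lay within 2 FPKM of each other and the groups were far apart, with a ratio of means of 1.87. The difference was 0.90 ± 0.11 (log2 of FPKM + 1, SE; 95% interval 0.66 to 1.13; limma adjusted p = 0.00128). With iBP, Hif1a was at 304 and 327 FPKM, higher than in unstimulated libraries by 0.96 ± 0.11 (limma adjusted p = 0.000832). Of all 10436 genes tested, 0.968% were called higher and 0.326% lower in stimulated against unstimulated libraries, and 1.03% and 0.728% in iBP against unstimulated, together 1.29% and 1.75%, so that 1 call among 39 genes is near those shares. Ordered by size, Hif1a was number 73 of the 101 genes called higher in stimulated libraries. The call held without any 1 of the 6 libraries, but ended when the filter on low values was dropped (adjusted p = 0.0545) or when the variance was modelled without a trend (adjusted p = 0.156). The antisense gene Gm15283 overlaps Hif1a in GENCODE M21, and without strand information reads of such a pair cannot be told apart. Gm15283 was not listed among the genes measured here, so it has no level to set beside Hif1a.

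**Figure D2:**
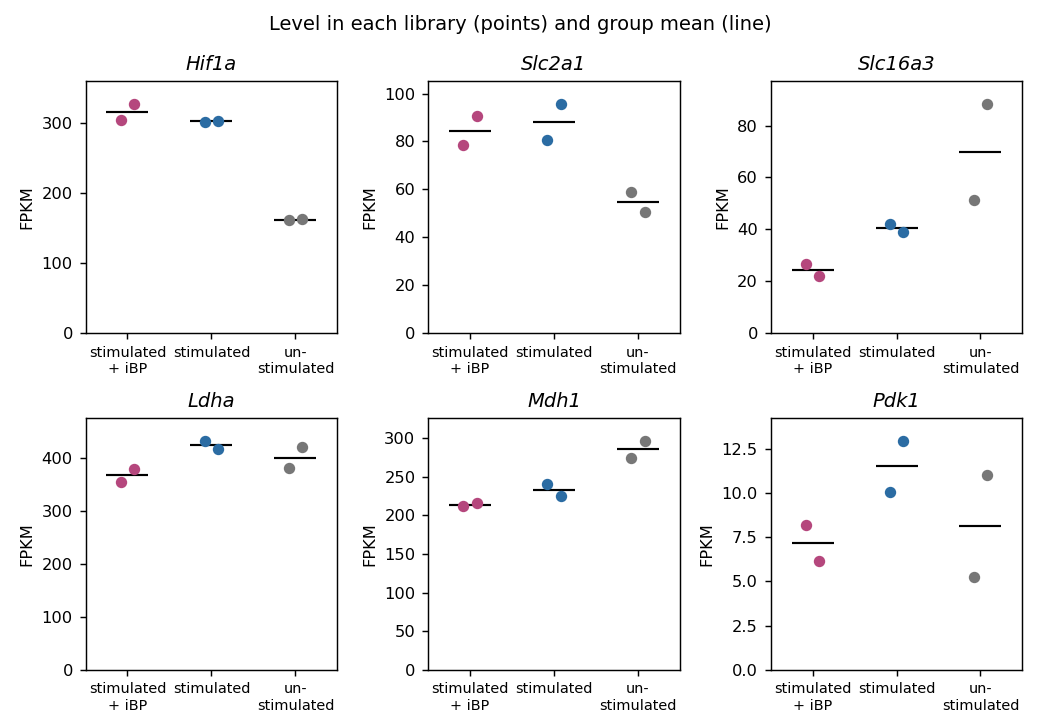
FPKM (vertical axes from 0) in each library (points; 2 per group) with the group mean (line), for Hif1a, the transporter genes Slc2a1 and Slc16a3, and the enzyme genes Ldha, Mdh1 and Pdk1. Hif1a is at 301 to 327 FPKM in all 4 stimulated libraries and at 161 to 162 in the unstimulated ones, whereas Ldha stays between 355 and 432 in every library.

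No enzyme had a fitted difference as large as that of Hif1a, and the largest was 0.74 for Hk1. The 95% intervals of Hk1, Hk2, Pdk1 and Eno1 included 0.90, so these values cannot decide on a rise of that size in them. Among all 39 tested genes, 18 fitted differences were above 0 and 21 below, with a median of −0.02, beside a median of −0.002 over all tested genes, of which 49.7% were above 0. In 7 of 39 genes both stimulated libraries were above both unstimulated ones and in 8 both were below, against 18.7% and 19.1% of all tested genes. At an unadjusted limma p under 0.05 there were 4 higher and 1 lower, against 5.88% and 4.93% of all tested genes; beside Hif1a these were Hk1, Pgam1 and Pdha1 (higher) and Mdh1 (lower). For 33 of the 39 genes the 95% interval lay wholly between −1 and 1, and its median half-width was 0.34, from 0.23 for Pkm to 0.81 for Hk2. These intervals are not adjusted for the number of genes tested, so a difference had to be well beyond its half-width to pass. Of the tested genes other than Hif1a, the 12 with an ACGTG match in the window had a median difference of 0.03. The 25 without a match had −0.07. Their ranges overlapped, at −0.30 to 0.47 and −0.5 to 0.74. In iBP against stimulated libraries the medians were in the other order, at −0.07 and −0.04. A difference between these sets was not tested.

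**Figure D3:**
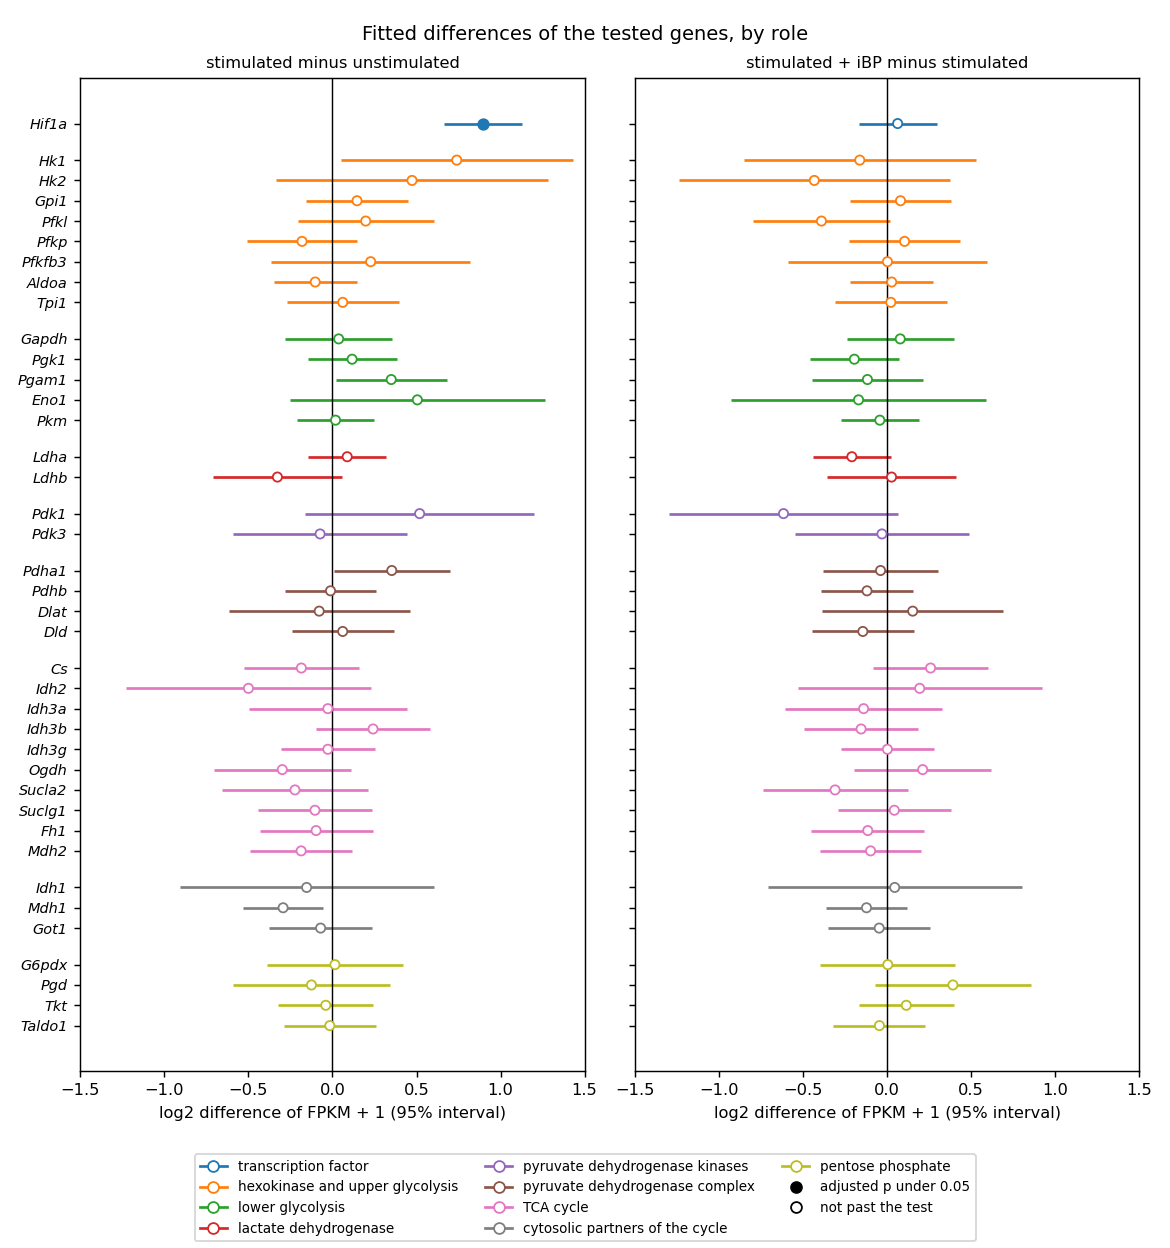
Fitted log2 differences (points) with 95% intervals (lines) for the 39 tested genes, grouped by role, for stimulated minus unstimulated (left) and stimulated with iBP minus stimulated (right); filled points passed the test. Hif1a at 0.90 on the left is the single filled point, and on the right every interval includes 0.

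Among the upper steps of glycolysis, Hk1, the housekeeping hexokinase that phosphorylates glucose, was listed at 10.8 and 12.9 FPKM in stimulated, against 4.51 and 9.75 FPKM in unstimulated libraries. The groups did not overlap, but the unstimulated libraries differed more from each other than replicate 2 did from the stimulated ones. The difference of 0.74 ± 0.31 did not pass (limma adjusted p = 0.424) and was 0.26 without unstimulated replicate 1 and 1.22 without unstimulated replicate 2. Hk2, the inducible hexokinase, was low, at 1.80 and 4.06 FPKM in stimulated against 1.59 and 1.84 in unstimulated libraries, and the groups overlapped (0.47 ± 0.37; limma adjusted p = 0.723). The difference was 0.05 without stimulated replicate 2 and 0.90 without stimulated replicate 1. Hk2 made up 14.3% and 23.9% of hexokinase FPKM (Hk1 and Hk2) in stimulated and 26.1% and 15.9% in unstimulated libraries, so that Hk1 was the main form of the pair in each.

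Phosphofructokinase commits sugar phosphate to glycolysis and exists as liver (Pfkl), muscle (Pfkm) and platelet (Pfkp) types. Pfkp took 53.9% and 57.7% of their summed FPKM in stimulated and 65.4% and 58.5% in unstimulated libraries, and Pfkm at most 2.05% in any library. Pfkm was at 0.881 and 0.502 FPKM in stimulated and 0.536 and 1.40 in unstimulated libraries, values at which the groups overlapped. Aldolase was almost wholly Aldoa, and the brain-type Aldoc reached no more than 0.525% of the pair in any library. Aldoc was listed at 0.306 and 0.861 FPKM in stimulated against 0.109 and 0.934 in unstimulated libraries. Pfkfb3, an isoform of the enzyme that makes the activator of phosphofructokinase, was at 4.89 to 8.41 FPKM over all libraries (0.23 ± 0.27). Gpi1, Aldoa and Tpi1, the isomerases and the aldolase between them, differed by −0.10 to 0.15. Over the 8 tested genes of the upper steps, from Hk1 to Tpi1, 6 differences were above 0 and 0 passed, with a range of −0.18 (Pfkp) to 0.74 (Hk1).

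In the lower, energy-yielding steps all 5 genes (Gapdh, Pgk1, Pgam1, Eno1 and Pkm) had a fitted difference above 0, with a median of 0.12 and none past the test. That count was 3 of 5 without stimulated replicate 1, 4 without unstimulated replicate 1 and 3 without unstimulated replicate 2. Pgam1, phosphoglycerate mutase, had the difference with the smallest p among them (0.35 ± 0.15; limma adjusted p = 0.429), which was 0.22 without unstimulated replicate 1. Pkm differed by 0.02 ± 0.11, with an interval of −0.21 to 0.25.

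Eno1, the enolase that makes phosphoenolpyruvate, varied most among the abundant genes, and its spread lay within groups. It was at 255 and 382 FPKM in stimulated libraries, against 335 and 144 FPKM in unstimulated libraries, and at 206 and 372 FPKM with iBP. The groups overlapped (0.50 ± 0.35 for stimulated against unstimulated; limma adjusted p = 0.677). The near-identical gene Eno1b was listed at 62.6 and 1.70 FPKM in stimulated, 1.74 and 87.7 in unstimulated, and 87.8 and 2.03 FPKM with iBP. In each of the 3 groups the library with high Eno1b was the one with low Eno1. Of the 50-base stretches of the longest Eno1b transcript in GENCODE M21, 75.3% occur in an Eno1 transcript, so reads of these genes may be assigned to either. Summing both genes, a choice made after these values were seen, gave 318 and 384 FPKM in stimulated against 337 and 232 FPKM in unstimulated libraries, a difference of 0.32 ± 0.18 (limma adjusted p = 0.556).

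**Figure D4:**
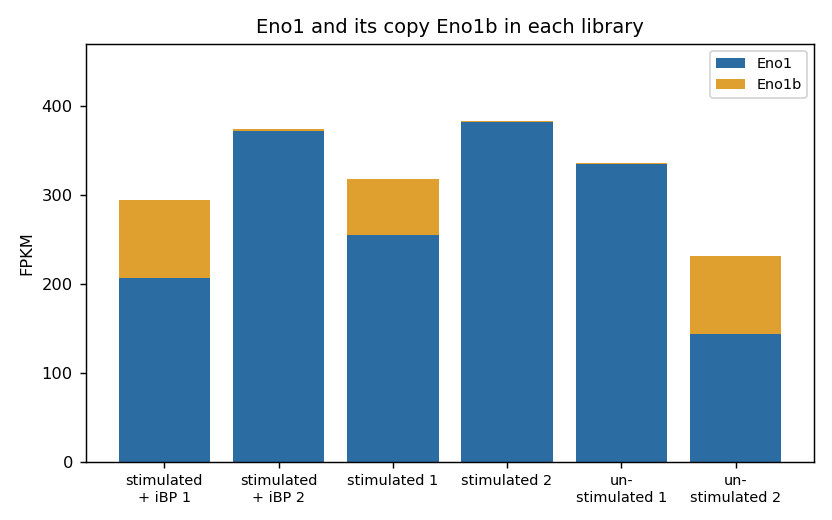
FPKM (vertical axis from 0) of Eno1 (blue) and Eno1b (orange), stacked for each of the 6 libraries. Eno1b is at 62.6 to 87.8 FPKM in 3 libraries, 1 of each group, where Eno1 is lowest within its group, and at 2.03 FPKM or less in the other 3.

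Lactate dehydrogenase turns pyruvate into lactate. Ldha was at 432 and 417 FPKM in stimulated and 380 and 420 FPKM in unstimulated libraries, overlapping ranges that differed by 0.09 ± 0.11 (95% interval −0.14 to 0.32; limma adjusted p = 0.856). Ldhb, the heart-type subunit, was at 22.1 and 20.5 FPKM in stimulated, against 25.4 and 28.7 FPKM in unstimulated libraries. Both stimulated libraries were below both unstimulated ones, but the difference of −0.33 ± 0.18 did not pass (limma adjusted p = 0.544). Ldha took 95.1% and 95.3% of the pair in stimulated and 93.7% and 93.6% in unstimulated libraries.

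At the entry to mitochondrial oxidation, Pdk1 encodes a kinase that inhibits pyruvate dehydrogenase and is a known HIF-1 target. It was listed at 10.1 and 13.0 FPKM in stimulated, against 5.26 and 11.0 FPKM in unstimulated libraries. The groups overlapped (0.52 ± 0.31; limma adjusted p = 0.612), and the difference was 0.05 without unstimulated replicate 1 and 0.99 without unstimulated replicate 2. Pdk2 was under 1 FPKM throughout, at 0.405 and 0.308 in stimulated and 0.424 and 0.461 in unstimulated libraries, and Pdk3 was at 9.29 to 14.2 FPKM in all 6 libraries. Of the complex itself, Pdha1, its alpha subunit, was at 53.7 and 46.7 FPKM in stimulated, against 34.9 and 43.7 FPKM in unstimulated libraries. These groups did not overlap, but the difference of 0.35 ± 0.16 did not pass (limma adjusted p = 0.450) and was 0.19 without unstimulated replicate 1. Pdhb, Dlat and Dld, the other subunits, differed by −0.08 to 0.06.

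In the TCA cycle 9 of 10 tested genes had a fitted difference below 0 in stimulated libraries, with a median of −0.145 and 0 past the test. This direction rested on unstimulated replicate 1: without it the split was 5 below and 5 above, with a median of −0.05, and without unstimulated replicate 2 it was 7 below and 3 above. Mdh2, the mitochondrial malate dehydrogenase, shows the pattern, at 269 and 286 FPKM in stimulated against 366 and 272 FPKM in unstimulated libraries. Sucla2, a subunit of succinyl-CoA ligase, was at 36.1 and 33.7 FPKM in stimulated against 50.1 and 33.3 in unstimulated libraries. In both genes the high value was that of unstimulated replicate 1, and without it their differences turned from −0.19 to 0.03 and from −0.22 to 0.06.

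Of the 10 genes of the cycle 3 (Idh2, Ogdh and Cs) were lower in both stimulated libraries than in both unstimulated ones. Higher in both was 1 gene, Idh3b. Over all tested genes 19.1% were lower in this way and 18.7% higher. Idh2, the mitochondrial NADP-linked isocitrate dehydrogenase, was at 2.57 and 1.56 FPKM in stimulated against 2.78 and 3.83 FPKM in unstimulated libraries (−0.50 ± 0.33; limma adjusted p = 0.662). The Idh2 difference was −0.26 without stimulated replicate 2 and −0.74 without stimulated replicate 1. Ogdh, the oxoglutarate dehydrogenase subunit that sets the pace of the cycle's oxidative span, was at 13.7 and 15.9 FPKM in stimulated against 17.4 and 19.4 FPKM in unstimulated libraries (−0.30 ± 0.19; limma adjusted p = 0.634). Citrate synthase, Cs, was at 26.7 and 25.7 FPKM in stimulated against 31.3 and 28.6 FPKM in unstimulated libraries (−0.19 ± 0.16; limma adjusted p = 0.758). The 1 gene above 0 was Idh3b (0.24), a subunit of the NAD-linked isocitrate dehydrogenase. Of the 3 subunits of that enzyme, Idh3g took 69.0% in both stimulated libraries, and 67.9% and 74.1% of their FPKM in the unstimulated ones. Suclg1, another succinyl-CoA ligase subunit, and Fh1, fumarate hydratase, each differed by −0.10 ± 0.15. Without unstimulated replicate 1 the difference was 0.02 for Suclg1 and −0.22 for Fh1. Idh3a, the catalytic subunit of the NAD-linked enzyme and the lowest of its 3, was at 27.8 and 27.1 FPKM in stimulated against 36.0 and 21.7 FPKM in unstimulated libraries. The Idh3a difference of −0.03 was 0.32 without unstimulated replicate 1 and −0.38 without unstimulated replicate 2.

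Of the 3 cytosolic partners of the cycle none passed. Mdh1, the cytosolic malate dehydrogenase of the malate-aspartate shuttle, was at 241 and 225 FPKM in stimulated, against 274 and 297 FPKM in unstimulated libraries, and at 212 and 215 FPKM with iBP. The 3 groups did not overlap. The differences did not pass for stimulated (−0.29 ± 0.11; limma adjusted p = 0.326) or for iBP (−0.42 ± 0.11; limma adjusted p = 0.0943) against unstimulated libraries. Got1, the aspartate aminotransferase of the same shuttle, differed by −0.07 ± 0.14. Idh1, the cytosolic NADP-linked isocitrate dehydrogenase, was near the filter at 1.01 and 1.27 FPKM in stimulated against 1.38 and 1.36 FPKM in unstimulated libraries. The 4 pentose phosphate genes differed by −0.12 (Pgd) to 0.01 (G6pdx).

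Stimulated libraries with iBP against stimulated libraries ask whether these levels differ when the inhibitor is present. None of the 39 genes passed with limma, 0 had an unadjusted p under 0.05, and the smallest limma adjusted p was 0.998. Over all 10436 tested genes 0.00958% were called, a single gene, and 4.77% had an unadjusted p under 0.05 (1.46% higher and 3.32% lower). Of the 39 fitted differences 18 were above 0, against 44.2% of all tested genes, and the median was −0.04, beside −0.03 over all tested genes. The iBP libraries were wholly below the stimulated ones in 12 of 39 genes and wholly above in 5, against 21% and 13.6% of all tested genes. For 37 of the 39 genes the 95% interval lay between −1 and 1. Hif1a differed by 0.06 ± 0.11, with an interval of −0.17 to 0.29.

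The largest negative difference was that of Pdk1, at 8.18 and 6.15 FPKM with iBP, against 10.1 and 13.0 FPKM in stimulated libraries. The groups did not overlap (−0.62 ± 0.31; 95% interval −1.30 to 0.07), and the iBP values lay within the range of the unstimulated libraries. Hk2 was at 1.48 and 2.13 FPKM with iBP against 1.80 and 4.06 in stimulated libraries (−0.43 ± 0.37), a difference of −0.01 without stimulated replicate 2 and −0.86 without stimulated replicate 1. Pfkl was at 18.6 and 22.8 FPKM with iBP, against 27.4 and 27.3 FPKM in stimulated libraries (−0.39 ± 0.19). Pfkl took 31.5% and 38.3% of phosphofructokinase FPKM with iBP, against 44.7% and 41.6% in stimulated libraries.

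Sucla2 was at 25.5 and 30.6 FPKM with iBP, against 36.1 and 33.7 FPKM in stimulated libraries (−0.31 ± 0.20). Ldha was at 355 and 379 FPKM with iBP, against 432 and 417 FPKM in stimulated libraries (−0.21 ± 0.11; 95% interval −0.44 to 0.02). Pgk1, the phosphoglycerate kinase, was at 91.2 and 87.3 FPKM with iBP, against 98.8 and 106 FPKM in stimulated libraries (−0.20 ± 0.12). In these 3 genes the groups did not overlap, and none of the differences passed.

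On the positive side Pgd, which makes ribulose phosphate and NADPH, was at 11.8 and 13.4 FPKM with iBP, against 8.76 and 9.96 FPKM in stimulated libraries (0.39 ± 0.21). Cs was at 30.4 and 32.7 FPKM with iBP against 26.7 and 25.7 FPKM in stimulated libraries (0.26 ± 0.16), and Ogdh at 18 and 16.5 against 13.7 and 15.9 FPKM (0.21 ± 0.19). Tkt, the transketolase, was at 62.8 and 65.4 FPKM with iBP against 60.2 and 58.2 FPKM in stimulated libraries (0.11 ± 0.13). These 4 genes did not overlap between the groups. Idh2 was at 2.12 and 2.82 FPKM with iBP against 2.57 and 1.56 FPKM in stimulated libraries, and Dlat, the acetyltransferase of pyruvate dehydrogenase, at 7.04 and 7.74 against 7.43 and 5.76 FPKM. Both overlapped, and both differences turned negative without stimulated replicate 2. Pdk2, which was not tested, was at 0.725 and 0.666 FPKM with iBP against 0.405 and 0.308 FPKM in stimulated libraries.

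Set against unstimulated libraries, iBP libraries were wholly below in 11 of 39 genes and wholly above in 6, against 23.9% and 18.1% of all tested genes. Fitted differences were above 0 in 16 of 39, against 45.6%. At an unadjusted p under 0.05 there were 1 higher gene (Hif1a) and 2 lower, against 5.22% and 7.02% of all tested genes; the lower ones were Mdh1, given above, and Sucla2 (−0.53 ± 0.20; limma adjusted p = 0.277). The Sucla2 difference was −0.25 without unstimulated replicate 1 and −0.82 without unstimulated replicate 2. This comparison shares the unstimulated libraries with stimulated against unstimulated, and the iBP libraries with iBP against stimulated.

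Other genes of these pathways, 60 in number, comprise transporters, further isoforms and HIF regulators; 49 were tested. None passed in stimulated against unstimulated libraries, with 23 differences above 0 and 26 below and a median of −0.02. None passed in iBP against stimulated libraries either, and 1 passed in iBP against unstimulated, where it was lower. That gene was Slc16a3, which encodes the lactate exporter MCT4 and is a known HIF-1 target. It was listed at 26.7 and 22.0 FPKM with iBP, 42.2 and 38.8 FPKM in stimulated and 51.2 and 88.3 FPKM in unstimulated libraries. The 3 groups did not overlap, and unstimulated replicate 2 was far above the rest. The difference of iBP against unstimulated was −1.44 ± 0.22 (95% interval −1.92 to −0.95; limma adjusted p = 0.00643). The steps between did not pass, at −0.72 ± 0.22 for iBP against stimulated (limma adjusted p = 0.998) and −0.72 ± 0.22 for stimulated against unstimulated (limma adjusted p = 0.194). The last of these was −1.11 without unstimulated replicate 1 (adjusted p = 0.0241) and −0.33 without unstimulated replicate 2 (adjusted p = 0.434), the library with the highest level. The iBP against unstimulated call ended when iBP replicate 2 was left out (adjusted p = 0.0662), when low genes were kept in (0.202) and when the variance had no trend (0.163).

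Slc2a1, the main glucose importer GLUT1 and also a known HIF-1 target, was at 80.8 and 95.7 FPKM in stimulated, against 58.7 and 50.8 FPKM in unstimulated libraries. The groups did not overlap, and the difference of 0.68 ± 0.15 was just outside the threshold (limma adjusted p = 0.0501). With iBP it was at 78.4 and 90.5 FPKM, a difference of −0.06 ± 0.15 from stimulated libraries. Prps1, which activates ribose phosphate for nucleotide synthesis, was at 223 and 248 FPKM in stimulated against 184 and 139 FPKM in unstimulated libraries (0.55 ± 0.14; limma adjusted p = 0.0912). The difference was 0.76 without unstimulated replicate 1 (adjusted p = 0.0280) and 0.35 without unstimulated replicate 2 (adjusted p = 0.232). Pfkfb1, another isoform of the Pfkfb3 enzyme, was at 2.12 and 3.73 FPKM in stimulated against 0.656 and 0.577 FPKM in unstimulated libraries (1.25 ± 0.41; limma adjusted p = 0.238). Pgls, the lactonase of the pentose phosphate pathway, was at 43.1 and 25.8 FPKM in stimulated against 52.7 and 50.9 FPKM in unstimulated libraries (−0.62 ± 0.22; limma adjusted p = 0.313). The Pgls difference was −0.26 without stimulated replicate 2 and −0.98 without stimulated replicate 1. The 7 tested HIF regulators and partners include Egln hydroxylases and Vhl, whose products mark HIF-1α protein for destruction. In stimulated against unstimulated libraries 3 differences were above 0 and 4 below. In iBP against stimulated libraries 4 were above 0 and 3 below, and none passed in any comparison. The smallest adjusted p was that of Vhl in iBP against unstimulated libraries (−0.76 ± 0.20, limma adjusted p = 0.0932). Vhl was at 11.3 and 10.9 FPKM with iBP, 15.3 and 17.4 in stimulated and 21.6 and 17.4 in unstimulated libraries.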

How the data were processed

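The submitters' processing notes name HISAT2 2.2.1, StringTie 2.1.1 and the mm10 assembly. The authors deposited FPKM per gene, 1 column per library. The sources used here do not give the annotation, the strand or how multi-mapped reads were treated, so near-identical or overlapping genes may share reads. Read depth is unknown, so a single value carries no counting error.

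Values were analysed as log2(FPKM + 1), which understates the change of low genes. Genes with at least 1 FPKM in at least 2 libraries (10436 of 24421) were fitted with limma 3.58.1 in R 4.3.3, with the 3 groups as terms and a variance trend (residual degrees of freedom 3, prior 8.52). The limma tests are two-sided; p-values were adjusted by Benjamini-Hochberg over all tested genes, with a threshold of 0.05. Errors of differences are standard errors of that fit. Whether libraries of a group came from separate mice is not in the labels; if they did not, the spread that p-values measure is technical. The script was tested on simulated data. The genes, lists and tests were chosen with earlier results of these data known. Genes are given in full if they passed or were the lowest of an enzyme family. Those among the 6 largest fitted rises or falls in stimulated against unstimulated or iBP against stimulated are also given in full. Of the other pathway genes, those that passed and the 5 with the smallest p in stimulated against unstimulated are named. Vhl is given as well, as the HIF regulator with the smallest adjusted p. Alternatives were another pseudocount, no filter, other scalings, no trend, a replicate term and each library left out. Coordinates are from GENCODE M21. Figures were drawn with matplotlib 3.10.9.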

Additional observations from a re-analysis of the deposited data

How the results depend on the processing

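The call of Hif1a ended without the filter on low values (adjusted p = 0.0545 at a log2 difference of 0.90 for stimulated, and 0.0525 at 0.96 for iBP, against unstimulated) and without the variance trend (0.156 and 0.142), where 0 of these genes passed in either comparison. It held in the other alternatives, with 0.89 to 0.90 and 0.91 to 1.01 when each library was left out. In iBP against stimulated libraries 0 passed in every alternative run. Over all tested genes, the 135 calls of stimulated against unstimulated, 1 of iBP against stimulated and 183 of iBP against unstimulated became 12, 0 and 11 without the filter and 12, 0 and 9 without the trend. They ranged over 54 to 141, 0 to 5 and 53 to 190 when a library was left out. With the replicate number as a block they were 79, 1 and 109, and Hif1a kept its calls (adjusted p = 0.00906 and 0.00764). The labels do not say whether the numbers pair the libraries. The deviations of same-numbered libraries from their group means correlated at −0.05 to −0.01. With 2 libraries a group, these values show no strong shared shift but cannot decide whether the libraries were paired. Among the differences given in full and run under every alternative, 5 changed sign, each when 1 library was left out. In stimulated against unstimulated, Sucla2 was 0.0649 (from −0.51 with another library left out) and Mdh2 0.0262 (from −0.40) without unstimulated replicate 1, and Eno1 was −0.10 (up to 1.11) without unstimulated replicate 2. In iBP against stimulated, Idh2 was −0.0489 (up to 0.43) and Dlat −0.0077 (up to 0.31) without stimulated replicate 2. Over all 39 tested genes, a check added after the data were seen, leaving out 1 library of the comparison changed the sign of 19 differences in stimulated against unstimulated, 19 in iBP against stimulated and 15 in iBP against unstimulated. The cause was not tested. With 2 libraries a group and unknown depth, some differences whose 95% interval did not include 0 still failed the adjusted test.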
